A study of Mus musculus with 20 samples.

Results

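The genes described here are 10 targets of WNT signalling that hepatocytes around the central vein express: Axin2, Rnf43, Lgr5, Tbx3, Glul, Oat, Rhbg, Slc1a2, Lhpp and Cyp2e1. They were chosen by gene symbol, each matched 1 of the 22298 genes listed in the deposited tables, and all 10 passed the filter on low counts that left 12342 genes for testing. Liver RNA was sequenced from 20 mice in 4 groups of 5. All were males of the Lepr db/db strain, in which loss of the leptin receptor causes obesity and diabetes. The Vec mice received an AAV8 vector with a non-targeting shRNA and vehicle, and the Vec+BBR mice received that vector and benzbromarone (BBR), a uricosuric drug, by gavage at 25 mg/kg daily for 4 weeks. The shRNA mice received AAV8 carrying shRNAs against Pparg with vehicle, and the shRNA+BBR mice received these shRNAs with BBR. Vectors were injected at 5 weeks of age, and all mice were fasted for 6 h before the liver was taken, so every group carries both the Lepr mutation and an AAV8 vector. The deposited labels say PPAR and do not name the isoform, which comes from the study's methods.

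In the liver lobule, endothelial cells of the central vein secrete WNT ligands and R-spondins, and the hepatocytes next to them keep beta-catenin from being degraded and transcribe its target genes through TCF factors. Some of these targets act on the pathway itself. Axin2 is a scaffold of the complex that degrades beta-catenin, Rnf43 is a ubiquitin ligase that removes Frizzled receptors from the surface, Lgr5 is an R-spondin receptor and Tbx3 is a transcription factor. Others carry the metabolism of the pericentral hepatocyte, such as glutamine synthetase (Glul), which fixes ammonia that has escaped the periportal urea cycle. The comparisons ask how the level of these genes differed with BBR, with Pparg knockdown, and with BBR when Pparg was knocked down.

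Sequences upstream of the start were available for 6 of the 10 genes (Glul, Slc1a2, Oat, Cyp2e1, Rnf43 and Axin2) in RefSeq on GRCm38.p6, and those of Slc1a2, Cyp2e1 and Oat are shown because these 3 genes varied together among the mice, as given further on. The 250 bases before the start of Slc1a2 lie at chr2:102706188-102706437 on the plus strand, inside the span that GENCODE M21 gives the gene. Those of Cyp2e1 lie at chr7:140763569-140763818 on the plus strand, and the last of them are inside its GENCODE span, which begins at 140763739. Those of Oat lie at chr7:132576399-132576648 on the minus strand. Capitals mark the letters CTTTGA, the core of the TCF/LEF motif, on either strand.
Slc1a2: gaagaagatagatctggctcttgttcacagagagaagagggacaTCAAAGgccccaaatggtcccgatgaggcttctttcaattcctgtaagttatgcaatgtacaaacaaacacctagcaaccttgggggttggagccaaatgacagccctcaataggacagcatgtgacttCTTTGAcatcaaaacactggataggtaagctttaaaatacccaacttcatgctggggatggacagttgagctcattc
Cyp2e1: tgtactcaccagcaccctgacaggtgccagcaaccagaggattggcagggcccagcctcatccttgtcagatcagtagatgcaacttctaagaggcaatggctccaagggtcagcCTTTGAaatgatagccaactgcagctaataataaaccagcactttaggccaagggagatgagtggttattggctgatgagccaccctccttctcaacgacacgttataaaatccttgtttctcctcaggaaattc
Oat: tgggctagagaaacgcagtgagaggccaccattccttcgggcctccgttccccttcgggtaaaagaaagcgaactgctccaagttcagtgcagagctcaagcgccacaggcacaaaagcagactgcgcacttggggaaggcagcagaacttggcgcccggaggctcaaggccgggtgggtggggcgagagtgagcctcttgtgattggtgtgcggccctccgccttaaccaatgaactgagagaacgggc
The Slc1a2 window held 2 matches, of which the nearer lies 77 to 72 bases before the start and the farther, as TCAAAG, lies 206 to 201 bases before it. The Cyp2e1 window held 1 match, 135 to 130 bases before the RefSeq start. This match, at chr7:140763684-140763689, lies nearer to the GENCODE start at 140763739. No match was found in the windows of Oat, Glul, Axin2 or Rnf43, the last of which has 2 starts in the table. CTTTGA occurred on either strand in 13.8% of all 32851 windows of this length, and the longer CTTTGAT, which overlaps it and was found in Slc1a2, occurred in 3.21%. The nuclear receptor motif AGGTCA occurred in 14% of windows and, among the 6 genes, in Glul. The DR1 arrangement, 2 copies of AGGTCA with 1 base between them, occurred in 0.0335% of all windows and was not found in these of the 6 genes. These matches describe letters in a window, and binding was not measured.

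In GENCODE M21 (GRCm38) the 10 protein-coding genes lie on 7 chromosomes. Glul spans chr1:153899944-153909723, Slc1a2 chr2:102658659-102790784, Rhbg chr3:88242874-88254709 and Tbx3 chr5:119670669-119684724. Oat spans chr7:132557478-132576398, Lhpp chr7:132610638-132706420 and Cyp2e1 chr7:140763739-140774987. Lgr5 spans chr10:115450311-115587780, Rnf43 chr11:87662722-87735539 and Axin2 chr11:108920349-108950783. Glul, Slc1a2, Tbx3 and Axin2 share 116, 189, 115 and 209 exonic bases with an annotated gene on the opposite strand, and reads of the pair cannot be told apart there because the kit does not mark strand.

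Total counts ran from 17432904 to 25024099 per library, with 14266 to 15072 genes detected. Mitochondrial genes took 9.14% to 10.83% of counts in Vec, 9.96% to 13.79% in Vec+BBR, 9.9% to 12.27% in shRNA and 10.22% to 16.22% in shRNA+BBR, where the 10 most abundant genes took up to 29.68% against at most 27.5% in the other groups. The part of this difference in the shRNA+BBR results was not tested. Pparg, the target of the shRNAs, had a mean of 24.8 ± 8.63 CPM (the count scaled to library size with TMM factors, mean ± SD, n = 5) in Vec and 5.73 ± 1.53 in shRNA, a log2 difference of -2.12 (adjusted p = 4.47e-05, edgeR). With BBR it was 31.8 ± 4.57 in Vec+BBR and 13.9 ± 6.22 in shRNA+BBR, a log2 difference of -1.20 (adjusted p = 0.00843), and within the knockdown BBR raised it by 1.28 (adjusted p = 0.00773). Pparg in shRNA+BBR replicates 1 to 5 was 11.4, 9.99, 21.8, 18.9 and 7.19 CPM. Replicates 3 and 4 thus lay within the Vec range of 16.4 to 35.9 CPM. What this spread contributed to the shRNA+BBR results was not tested. The hepatocyte markers Alb, Apoa1, Ttr, Serpina1a and Fgb together took between 84219 and 142123 CPM in every library. In whole liver, fewer cells of a type and less RNA per cell cannot be told apart. Vec replicate 3 had the lowest level in its group of 9 of the 10 genes, all but Glul, and Vec+BBR replicate 3 also had the lowest of 9, all but Cyp2e1. In shRNA+BBR, replicate 4 had the lowest of 6, namely Glul, Oat, Rhbg, Slc1a2, Lhpp and Cyp2e1. Vec replicate 3 also had the lowest sum of the periportal gene list in its group, at 14523 CPM against 17549 to 27864 in the other 4 mice. Replicates 3 and 5 both lay below the other Vec mice for Oat, Slc1a2, Lhpp, Cyp2e1, Tbx3 and Rnf43. This did not hold for Glul, Rhbg, Axin2 or Lgr5. Pparg was higher in these 2 mice, at 35.9 and 32.1 CPM against 16.4 to 20.1 in the other Vec mice. No alternative left out both.

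Per transcript length, the 10 genes span a wide range of abundance. In Vec the mean FPKM, the deposited value scaled for length, was 4864 ± 1042 for Cyp2e1, 1353 ± 733 for Oat, 307 ± 37.8 for Glul and 105 ± 25.5 for Lhpp. It was 37.0 ± 13.5 for Slc1a2, 21.4 ± 5.02 for Rhbg, 3.58 ± 0.934 for Rnf43, 3.28 ± 0.397 for Tbx3, 1.37 ± 0.691 for Axin2 and 0.385 ± 0.143 for Lgr5. Neighbours in this order did not overlap between mice, except Slc1a2 with Rhbg and Rnf43 with Tbx3, whose ranges did. The metabolic genes are therefore the abundant ones and the pathway genes the rare ones, and Cyp2e1 alone took 0.635% to 1.08% of all counts in the Vec livers. With BBR the range of Oat came to overlap that of Glul, with means of 363 ± 89.3 and 253 ± 33.2 FPKM in Vec+BBR. The lowest count of any of the 10 genes in any library was 9, for Lgr5.

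**Figure D1:**
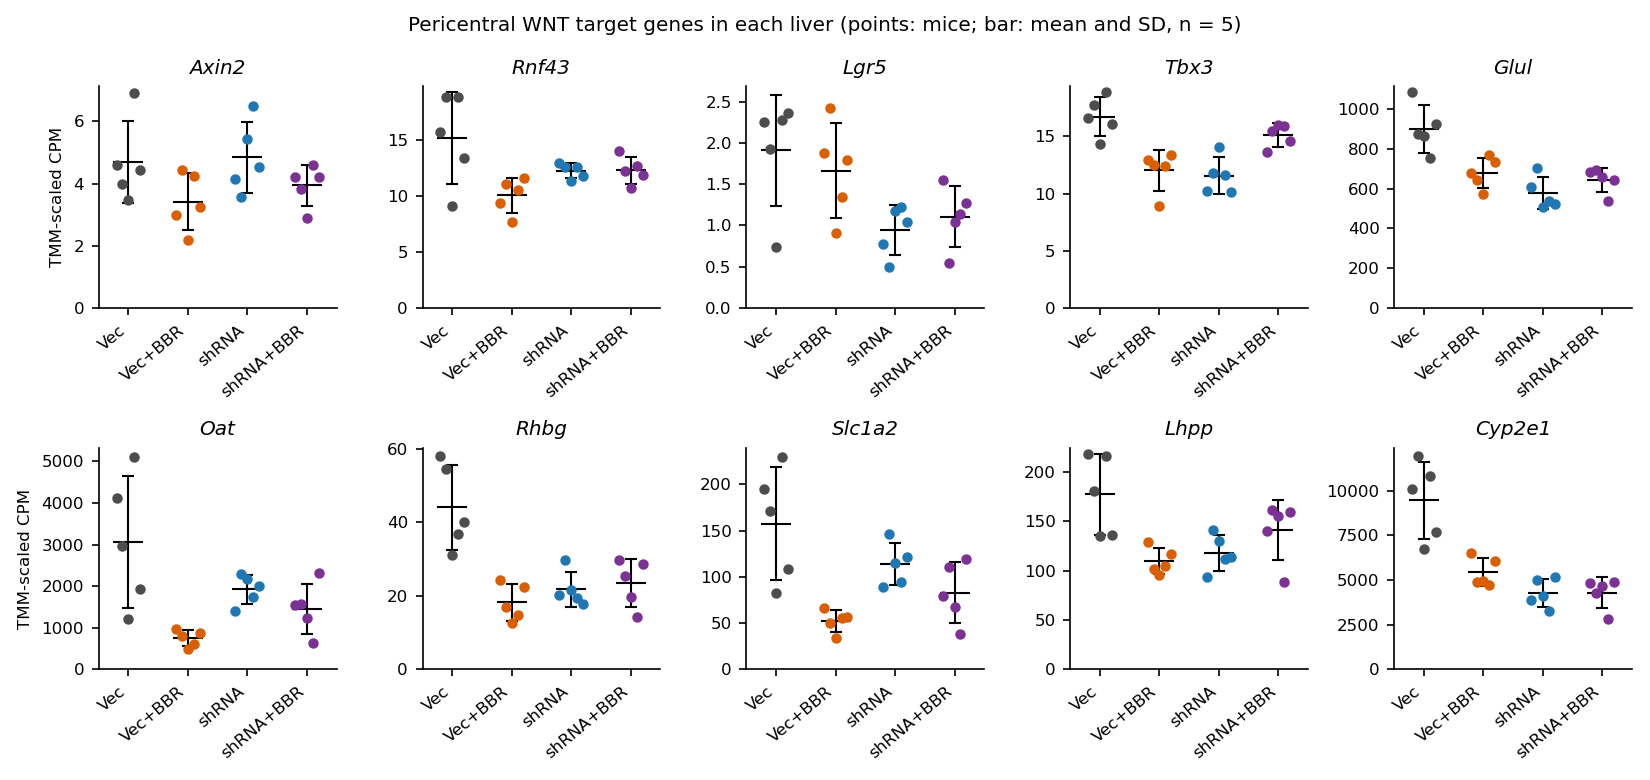
Level of each of the 10 genes in each mouse, as CPM after TMM scaling on a linear axis from 0, with groups on the horizontal axis, points for mice and bars for the mean and SD (n = 5). Oat is between 1212 and 5101 in the Vec mice and between 495 and 976 in the Vec+BBR mice, and Tbx3 is between 13.6 and 16 in shRNA+BBR and between 14.3 and 18.9 in Vec.

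BBR in mice with intact Pparg lowered most of these genes. In Vec+BBR against Vec, 8 of the 10 fell past an adjusted p of 0.05 and none rose, while of all 12342 genes 7.88% fell and 7.58% rose. All 10 log2 fold changes were below 0, with a median of -0.64 against -0.005 over all genes tested. For 6 genes (Tbx3, Oat, Rhbg, Slc1a2, Lhpp and Cyp2e1) every Vec+BBR mouse was below every Vec mouse, which held for 4.24% of all genes. The largest falls were in genes of glutamate, ornithine and ammonia handling.

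Oat encodes ornithine aminotransferase, the mitochondrial enzyme that turns ornithine towards glutamate. Its levels in Vec replicates 1 to 5 were 4120, 2962, 1212, 5101 and 1928 CPM, and in Vec+BBR they were 976, 803, 495, 619 and 883 CPM. The groups did not overlap, although the Vec mice differed widely among themselves, and Oat fell by 2.02 on the log2 scale (SE 0.333, adjusted p = 0.000674), or 4.06-fold. Slc1a2 encodes a plasma membrane glutamate transporter. It measured 195, 171, 82.1, 230 and 109 CPM in Vec and 66.3, 49.6, 34.1, 55.9 and 56.7 CPM in Vec+BBR, again without overlap, and fell by 1.58 (SE 0.281, adjusted p = 0.00108), or 3-fold. Rhbg, an ammonium transporter of the Rhesus family, measured 58.1, 54.5, 31.2, 36.8 and 40 CPM in Vec and 24.4, 17, 12.5, 14.7 and 22.5 CPM in Vec+BBR. It fell by 1.28 (SE 0.218, adjusted p = 0.00087), or 2.42-fold. Rhbg shares 1190 exonic bases on its own strand with the annotated gene Gm38392, between which the authors' counting divides reads, so its level is uncertain. Gm38392 itself was at most 7.37 CPM in any library.

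Glul moved less than these genes. It measured 1087, 873, 864, 753 and 926 CPM in Vec and 678, 644, 575, 767 and 733 CPM in Vec+BBR, so that the lowest Vec mouse lay below the highest Vec+BBR mouse. It fell by 0.41 (SE 0.112, adjusted p = 0.0178), or 1.33-fold, and the call rests on single libraries, with an adjusted p of 0.0626 without Vec replicate 1 and 0.0539 without Vec+BBR replicate 3. On total library size without TMM the adjusted p was 0.102, and by limma on log2(FPKM + 0.1) it was 0.0861. Cyp2e1, the cytochrome P450 that oxidizes ethanol and paracetamol, ran from 6760 to 11953 CPM in Vec and from 4745 to 6506 CPM in Vec+BBR. It fell by 0.80 (SE 0.174, adjusted p = 0.00432), or 1.74-fold. Lhpp, a phosphatase of phosphohistidine, ran from 135 to 218 CPM and from 95.1 to 129 CPM, and fell by 0.69 (SE 0.163, adjusted p = 0.00721). The calls of Oat, Slc1a2, Rhbg, Lhpp and Cyp2e1 each held under all 28 alternatives.

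Among the 4 genes that act on transcription or on the pathway itself, 2 fell with BBR. Tbx3 measured 16.6, 17.7, 14.3, 18.9 and 16.1 CPM in Vec and 12.9, 12.5, 8.90, 12.4 and 13.4 CPM in Vec+BBR, and fell by 0.47 (SE 0.112, adjusted p = 0.00713). Rnf43 ran from 9.07 to 18.8 CPM in Vec, with replicate 3 lowest, and from 7.71 to 11.6 CPM in Vec+BBR, and fell by 0.59 (SE 0.151, adjusted p = 0.0124). Scaled to total library size, which itself moves the median of all genes by 0.136 in this comparison, the adjusted p was 0.0501 for Tbx3 and 0.0581 for Rnf43. By limma on log2(FPKM + 0.1) it was 0.0697 and 0.0652, and for Rnf43 it was 0.0638 with the 2 groups fitted alone. Axin2, with 4.61, 3.98, 3.48, 6.90 and 4.43 CPM in Vec and 2.99, 4.43, 2.19, 4.24 and 3.25 CPM in Vec+BBR, did not pass the test, at -0.45 (SE 0.21, adjusted p = 0.15). Lgr5 measured 2.25, 1.93, 0.736, 2.28 and 2.36 CPM in Vec and 1.88, 2.42, 0.904, 1.34 and 1.79 CPM in Vec+BBR, a difference of -0.19 (SE 0.311, adjusted p = 0.722). The groups overlapped for both genes, and replicate 3 was the lowest of its group in each case.

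Knockdown of Pparg without BBR was also followed by lower levels of most of these genes. In shRNA against Vec, 6 of the 10 fell and none rose, where 7.91% of all genes fell and 5.28% rose, and the median was -0.61 against -0.009 over all genes. Glul, Tbx3, Rhbg and Cyp2e1 showed no overlap between the groups, which held in this direction for 5.01% of all genes. Vec+BBR and shRNA are both compared with the same 5 Vec mice, so their values are set side by side here and not correlated.

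Cyp2e1 in shRNA was 3887, 4981, 4110, 3278 and 5155 CPM against 10070, 11953, 6760, 10792 and 7674 CPM in Vec. It fell by 1.14 (SE 0.175, adjusted p = 0.000195), or 2.21-fold. Rhbg was 20.2, 29.8, 21.6, 19.5 and 17.8 CPM and fell by 1.02 (SE 0.216, adjusted p = 0.0035), or 2.03-fold. Glul was 606, 703, 510, 539 and 525 CPM, every value below the lowest Vec mouse, and fell by 0.64 (SE 0.112, adjusted p = 0.000669), or 1.56-fold. Tbx3 was 10.2, 11.8, 14.1, 11.6 and 10.1 CPM and fell by 0.53 (SE 0.112, adjusted p = 0.00331). These 4 calls held under all 28 alternatives. Lhpp, from 93.5 to 141 CPM, fell by 0.59 (SE 0.163, adjusted p = 0.0217), but the adjusted p was 0.068 without Vec replicate 1, 0.0616 without shRNA replicate 1 and 0.055 without shRNA replicate 4. Under total library size it was 0.0534, and by limma on log2(FPKM + 0.1) it was 0.0742.

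Lgr5, the R-spondin receptor, was 0.777, 0.502, 1.17, 1.23 and 1.04 CPM in shRNA, and Vec replicate 3 lay inside this range. It fell by 1.00 (SE 0.326, adjusted p = 0.0466), which was past the threshold in 8 of 27 alternatives, while the adjusted p ran from 0.0102, without Vec replicate 3, to 0.132. Without any 1 of Vec replicates 1, 2, 4 and 5 it was 0.0971, 0.0771, 0.0688 and 0.0922, and without shRNA replicates 1 to 5 in turn it was 0.1, 0.103, 0.0565, 0.0601 and 0.0705. The call was also lost when Vec+BBR replicate 4 (0.0536) or 5 (0.0561) or shRNA+BBR replicate 3 (0.0517), 4 (0.0538) or 5 (0.0512) was left out.

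The other 4 genes did not pass the test with knockdown. Oat was 1402, 2287, 2175, 1746 and 2008 CPM in shRNA, within the Vec range, at -0.67 (SE 0.322, adjusted p = 0.174). Slc1a2 was 89.2, 146, 115, 94.9 and 122 CPM, at -0.47 (SE 0.274, adjusted p = 0.263). Rnf43 ran from 11.3 to 12.9 CPM, at -0.31 (SE 0.15, adjusted p = 0.185), and this became -0.44 with an adjusted p of 0.0195 without Vec replicate 3. Axin2 was 4.16, 3.57, 5.44, 6.48 and 4.54 CPM, at 0.05 (SE 0.206, adjusted p = 0.901). It was -0.041 without Vec replicate 3 and -0.077 without shRNA replicate 4.

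**Figure D2:**
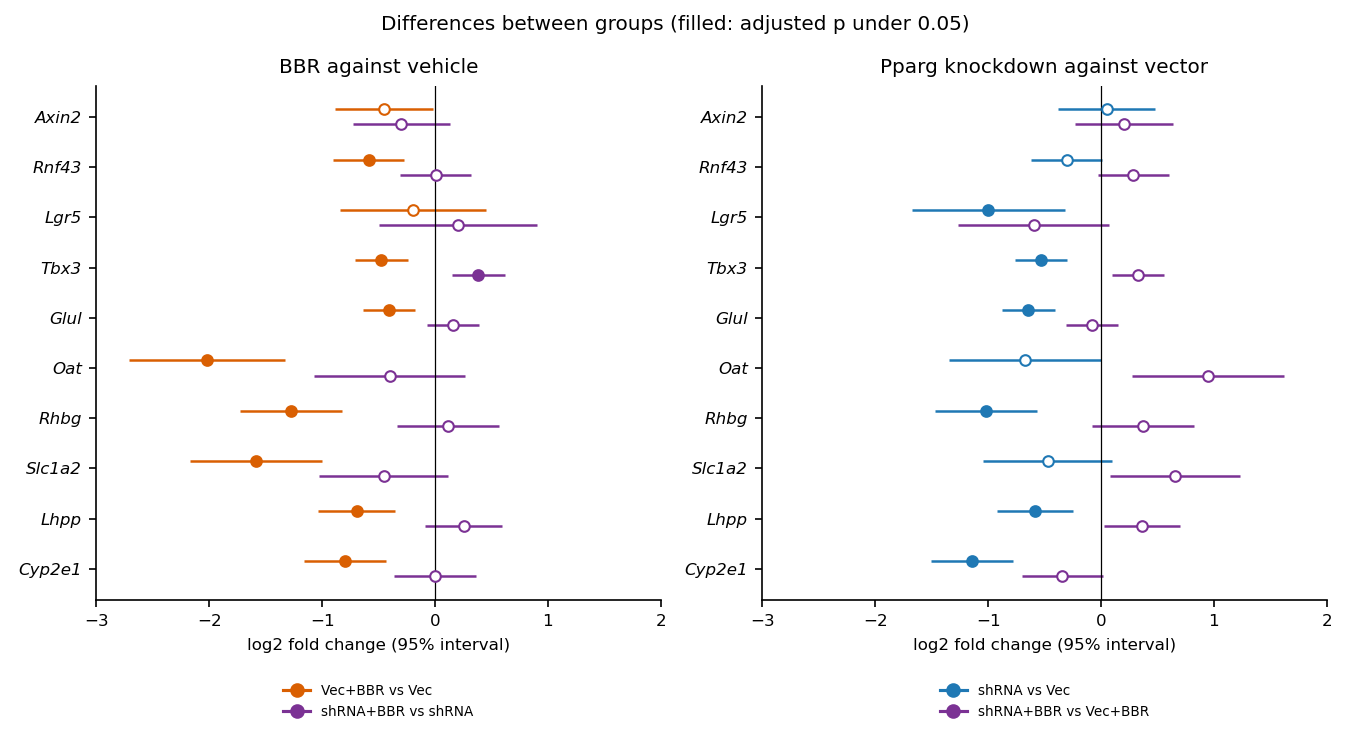
Log2 fold change of each of the 10 genes (horizontal axis, points with 95% intervals) for BBR against vehicle in Vec and in shRNA mice (left) and for Pparg knockdown without and with BBR (right), with filled points for an adjusted p under 0.05. The points for BBR in Vec mice run from -2.02 to -0.19 and those for BBR in shRNA mice from -0.45 to 0.39.

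With Pparg knocked down, the 10 genes lay on both sides of 0 with BBR, with a median of 0.06 against 0.008 over all genes. Pparg itself in shRNA+BBR replicates 3 and 4 lay within the Vec range, as given above. In shRNA+BBR against shRNA, 1 of the 10 rose and 0 fell by edgeR and by DESeq2, where 8.37% of all genes rose and 7.28% fell, and 1 of the 10 had an unadjusted p under 0.05, against 33.2% of all genes. The gene that rose was Tbx3, at 13.6, 15.5, 16, 15.9 and 14.6 CPM in shRNA+BBR, which was 0.39 higher than in shRNA (SE 0.112, adjusted p = 0.0267). The highest shRNA mouse, at 14.1 CPM, lay above the lowest shRNA+BBR mouse. Leaving out shRNA replicate 1, 4 or 5 gave an adjusted p of 0.0666, 0.0514 or 0.0676, leaving out shRNA+BBR replicate 2, 3 or 4 gave 0.0519, 0.0681 or 0.0566, and limma on log2(FPKM + 0.1) gave 0.0571.

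The other 9 genes lay between -0.45 and 0.25 in this comparison. Oat was 1536, 1571, 1225, 642 and 2310 CPM in shRNA+BBR, a difference of -0.40 with a 95% interval from -1.07 to 0.27. Slc1a2 was 79.3, 111, 67.1, 38.2 and 119 CPM, at -0.45 (-1.02 to 0.12). Rhbg was 29.8, 25.5, 19.7, 14.3 and 28.7 CPM, at 0.12 (-0.33 to 0.57). In these 3 genes replicate 4 was the lowest mouse of shRNA+BBR. Cyp2e1 was 4817, 4245, 4665, 2797 and 4902 CPM, at 0.001 (-0.36 to 0.36), and Glul was 684, 694, 659, 539 and 643 CPM, at 0.16 (-0.07 to 0.39). The intervals of Oat and Slc1a2 reach below -1, and that of Lgr5 runs from -0.49 to 0.91, so falls of that size in Oat and Slc1a2 are within the error.

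The reverse comparison, knockdown against vector in mice that all received BBR, gave no call. In shRNA+BBR against Vec+BBR, 0 of the 10 passed in either direction by edgeR, while 3.31% of all genes rose and 4.82% fell, 4 had an unadjusted p under 0.05 against 24.7% of all genes, and DESeq2 called 2 higher (Oat, adjusted p = 0.0415, and Tbx3, adjusted p = 0.0438). Tbx3 was 0.33 higher (SE 0.111, adjusted p = 0.071), and every shRNA+BBR mouse was above every Vec+BBR mouse, as for 3.28% of all genes. It passed, at 0.0499, without shRNA replicate 3. Oat was 0.95 higher (SE 0.324, adjusted p = 0.072). Its adjusted p was 0.0355 without Vec replicate 3 and 0.0258 without shRNA+BBR replicate 4, and without the latter Slc1a2 (0.0431) and Lhpp (0.0405) passed as well. Glul (-0.08), Cyp2e1 (-0.34) and Lgr5 (-0.60) were the 3 genes below 0, and none passed.

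The difference between the 2 BBR effects was tested directly as an interaction. It was above 0 for all 10 genes, with a median of 0.83 against 0.012 over all genes, and 8 of the 10 had an unadjusted p under 0.05 in this direction, where 9.79% of all genes did. After adjustment 1 gene passed, Tbx3 at 0.86 (SE 0.158, adjusted p = 0.0292), among 0.0729% of all genes in this direction. Tbx3 fell with BBR in Vec mice and rose with BBR in shRNA mice. The next were Rhbg at 1.39 (SE 0.306, adjusted p = 0.0584), Lhpp at 0.95 (SE 0.231, adjusted p = 0.0796), Oat at 1.62 (SE 0.456, adjusted p = 0.102) and Glul at 0.57 (SE 0.158, adjusted p = 0.102). Cyp2e1 (0.80), Slc1a2 (1.13) and Rnf43 (0.59) had adjusted p values of 0.116, 0.148 and 0.16, and Axin2 (0.15) and Lgr5 (0.40) had 0.805 and 0.655. The interaction uses the Vec mice and the Vec+BBR mice again, so it adds no independent mice to the comparisons above.

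Which genes pass the interaction depends on the tool and on single libraries. DESeq2 called 6 of the 10, namely Tbx3, Rhbg, Lhpp, Oat, Glul and Cyp2e1, and 338 genes in all against 18 by edgeR. Tbx3 was past the threshold in 18 of 27 alternatives, and its adjusted p was 0.053 without Vec replicate 1, 0.0594 without Vec replicate 2, 0.0601 without Vec+BBR replicate 4, 0.0604 without shRNA replicate 1, 0.0637 without shRNA replicate 4 and 0.0607 without shRNA+BBR replicate 2. Rhbg passed without Vec replicate 3 (0.0367) or 4 (0.0345), Vec+BBR replicate 1 (0.0325), shRNA replicate 2 (0.0495) or shRNA+BBR replicate 4 (0.0309). Lhpp passed without Vec+BBR replicate 1 (0.0496) or shRNA+BBR replicate 4 (0.0309).

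The rest of the WNT pathway was followed by fixed lists, of which the ligands and secretion factors had 7 tested genes. Wnt2 and Wnt9b are ligands of liver endothelium and Rspo3 is the R-spondin of the central vein. With BBR in Vec mice, 0 of the 7 passed by edgeR or by DESeq2 and 2 had an unadjusted p under 0.05. Such counts have a high background. Among all 12342 genes, an unadjusted edgeR p of 0.0429 ranked 3539 in Vec+BBR against Vec, and 0.0494 ranked 3500 in shRNA against Vec. A p under 0.05 was held by 24.7% of all genes in shRNA+BBR against Vec+BBR and by 33.2% in shRNA+BBR against shRNA. Wnt2 was at -0.51 (SE 0.215, adjusted p = 0.109), Wnt9b at -0.38 (adjusted p = 0.318) and Rspo3 at 0.11 (adjusted p = 0.747). All 3 ligands lay between 0.812 and 3.22 CPM in every mouse. In shRNA against Vec 0 of the 7 passed by either tool, with 2 at an unadjusted p under 0.05. Wnt2 was 0.73 higher in shRNA+BBR than in Vec+BBR (SE 0.211, adjusted p = 0.0356), a call kept in 15 of 28 alternatives and lost without any 1 of the 5 Vec+BBR mice (0.0702 without replicate 3) or of shRNA+BBR replicates 1, 2, 3 and 5. With BBR in shRNA mice, Wnt5a rose by 1.00 (SE 0.314, adjusted p = 0.0366) and Porcn, which attaches the lipid that WNT ligands need for secretion, fell by 0.64 (SE 0.2, adjusted p = 0.036). They kept the call in 20 of 27 and 20 of 28 alternatives.

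Of 13 tested receptors and surface regulators, 0 passed with BBR in Vec mice by edgeR or by DESeq2 and 1 had an unadjusted p under 0.05. Znrf3, the ligase related to Rnf43, was at -0.50 (SE 0.196, adjusted p = 0.09), and Lgr4, an R-spondin receptor related to Lgr5, at -0.14 (SE 0.143, adjusted p = 0.539). With knockdown, Fzd6 rose by 0.89 (SE 0.173, adjusted p = 0.0018) and Ryk fell by 0.36 (SE 0.074, adjusted p = 0.00252). Fzd6 ran from 3.09 to 4.41 CPM in Vec and from 5.21 to 8.41 CPM in shRNA, without overlap. It fell again by 0.62 in shRNA+BBR against shRNA (SE 0.17, adjusted p = 0.0215), a call kept in 24 of 28 alternatives, and in shRNA+BBR against Vec+BBR 0 of the 13 passed by either tool, with 2 at an unadjusted p under 0.05.

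Of 23 tested genes of the destruction complex and the TCF factors, 1 fell with BBR in Vec mice. It was Tcf7 at -0.68 (SE 0.217, adjusted p = 0.0386), a call kept in 19 of 28 alternatives and lost without Vec replicate 1 or 4 or Vec+BBR replicate 3 (0.0811), 4 or 5. Ctnnb1, which encodes beta-catenin, was at 0.30 (SE 0.104, adjusted p = 0.0512), and Tcf7l2, the main TCF factor of hepatocytes, at -0.16 (SE 0.116, adjusted p = 0.39). In shRNA against Vec 3 rose and 4 fell. Those that rose were Ctnnbip1, an inhibitor of the contact between beta-catenin and TCF, by 0.60 (SE 0.163, adjusted p = 0.0188), Dvl3 by 0.40 (SE 0.104, adjusted p = 0.0151) and Ctnnb1 by 0.32 (SE 0.104, adjusted p = 0.0465, kept in 15 of 28 alternatives). The Ctnnb1 call was lost without Vec replicate 1 (0.103), 2 (0.102) or 3 (0.0861), without Vec+BBR replicate 3, 4 or 5, without shRNA replicate 1, 2, 4 or 5 and without shRNA+BBR replicate 4. Those that fell most were Tnks2 by 0.53, Tle1 by 0.43 and Gsk3a by 0.34 on the log2 scale. The beta-catenin transcript itself was 113 to 151 CPM in Vec and 147 to 171 CPM in shRNA. In the knockdown, 0 of the 23 passed with BBR by edgeR and 2 by DESeq2, while 7 had an unadjusted p under 0.05, and Ctnnbip1 was 0.65 higher in shRNA+BBR than in Vec+BBR (SE 0.165, adjusted p = 0.0181).

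Among 8 tested inhibitors and feedback genes, 1 fell with BBR in Vec mice and 2 with knockdown, and Notum was among them in both. Notum encodes a secreted enzyme that inactivates WNT ligands and is itself a WNT target. It was 27.8, 22.9, 15.3, 23.2 and 16.3 CPM in Vec, 12.9, 10, 9.13, 8.84 and 10.3 CPM in Vec+BBR, 8.09, 12.2, 10.6, 10 and 14 CPM in shRNA and 11.4, 10.8, 8.90, 9.63 and 8.95 CPM in shRNA+BBR. The Vec mice lay above all 15 others. Notum fell by 1.04 with BBR in Vec mice (SE 0.161, adjusted p = 0.000388) and by 0.94 with knockdown (SE 0.16, adjusted p = 0.000552), both in all 28 alternatives. Sp5, a transcription factor that WNT induces, fell by 0.99 with knockdown (SE 0.262, adjusted p = 0.0156), from 1.08 to 2.30 CPM in Vec to 0.438 to 1.00 CPM in shRNA, and its adjusted p went above 0.05 without Vec replicate 1 or shRNA replicate 4, to at most 0.0605.

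Other zonated genes set the scale for these differences. Of 22 other pericentral genes, 3 rose and 13 fell with BBR in Vec mice, with a median of -0.59, and these 16 calls became 10 without Vec replicate 1 and 9 without Vec+BBR replicate 2. The falls were largest for Cyp2c37 at -2.40 (SE 0.362, adjusted p = 0.000306), the vasopressin receptor Avpr1a at -2.04 (SE 0.285, adjusted p = 0.000183) and Cyp1a2 at -1.60 (SE 0.252, adjusted p = 0.00046). Gstm3 (0.87), Gstm1 (0.49) and the tight junction gene Cldn2 (0.44) rose, and Gstm3 kept the call in 13 of 28 alternatives. Of 22 periportal genes, 1 rose and 10 fell, with a median of -0.37. Tat (-1.18) and the urea cycle enzymes Cps1 (-1.10) and Ass1 (-1.08) fell most and Hsd17b13 rose by 0.98. Genes of both zones fell with BBR, and the difference between the lists was not tested.

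With knockdown, fewer genes of these lists passed. Of the other pericentral genes 6 fell and 0 rose in shRNA against Vec, with a median of -0.28, led by Avpr1a (-0.87, a call kept in 17 of 28 alternatives), Slco1b2 (-0.68) and Aldh1a1 (-0.65). The Avpr1a call was lost without any 1 of Vec replicates 1, 2 and 4 and shRNA replicates 1, 2, 4 and 5, with an adjusted p of at most 0.0919 over all alternatives. Of the periportal genes 1 rose (Gldc, 0.66) and 1 fell (Fbp1, -0.81), with a median of 0.14. In shRNA+BBR against shRNA, 2 pericentral genes rose and 3 fell, and 0 periportal genes rose while 4 fell, with medians of -0.08 and -0.30. These 5 and 4 calls rest on single libraries, since each became 1 without shRNA+BBR replicate 3, while the pericentral calls became 8 without Vec replicate 3 and the periportal calls 7 without shRNA+BBR replicate 5. Without any 1 of the shRNA mice or of shRNA+BBR replicates 2 and 4 there were 3 pericentral calls, and without shRNA replicate 5 or shRNA+BBR replicate 2 there were 2 periportal calls. In shRNA+BBR against Vec+BBR, 1 pericentral gene rose and 1 fell, and 4 periportal genes rose, Sds (1.01), Etnppl (0.95), Asl (0.76) and Ass1 (0.72). The pericentral calls became 5 without Vec+BBR replicate 1 and 1 without any 1 of the other Vec+BBR mice or of shRNA+BBR replicates 1 and 2. The periportal calls became 7 without Vec replicate 3 and 2 without Vec+BBR replicate 2 or 4 or shRNA+BBR replicate 2. The Ass1 call was kept in 22 of 28 alternatives, and was lost without Vec+BBR replicate 2 (adjusted p = 0.0512), 3 (0.0523) or 4 (0.0686) or shRNA+BBR replicate 2 (0.0692) or 5 (0.0733). Cldn2, although pericentral, went the other way from the 10 genes with BBR in Vec mice and differed by -0.87 between shRNA+BBR and Vec+BBR (SE 0.122, adjusted p = 0.000301), a call kept in all 28 alternatives. In shRNA against Vec it went the same way as most of the 10 genes. There it fell by 0.61 (edgeR, adjusted p = 0.0023), also in all 28 alternatives.

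**Figure D3:**
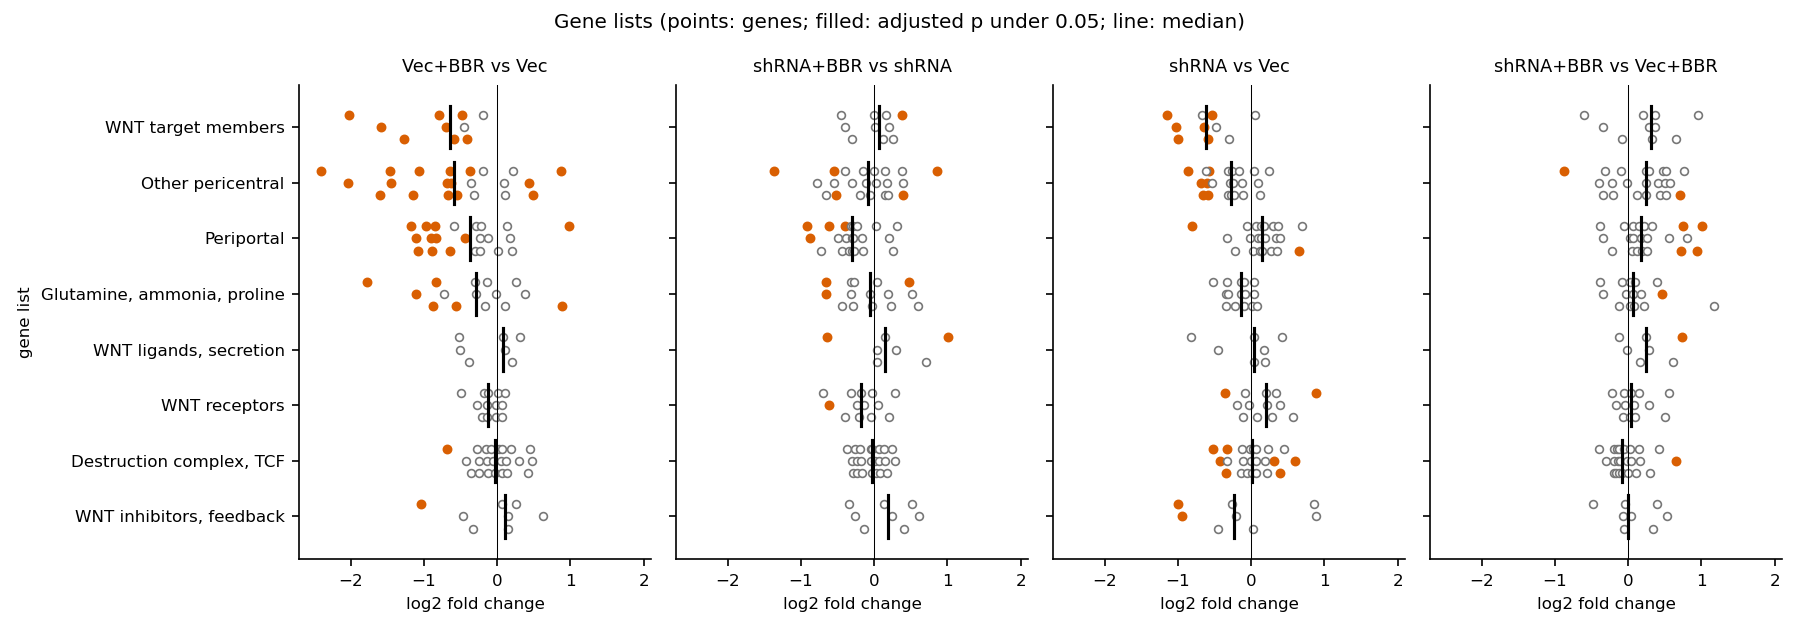
Log2 fold change (horizontal axis) of every tested gene of the 10 WNT targets and of 7 fixed lists, in the 4 comparisons between 2 groups, with filled points for an adjusted p under 0.05 and a line for the median. The median of the WNT targets is -0.64 with BBR in Vec mice and -0.61 with knockdown, and 0.06 with BBR in shRNA mice, while the median of the periportal list is -0.37, 0.14 and -0.30.

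Genes that share substrates with Glul, Oat, Rhbg and Slc1a2 were also followed. Of 15 tested genes of glutamine, ammonia and proline handling, 5 fell with BBR in Vec mice. Got1, the cytosolic aspartate aminotransferase, fell by 1.78 (SE 0.432, adjusted p = 0.00848), the glutamine transporter Slc38a3 fell by 0.87 (SE 0.144, adjusted p = 0.000721) and Prodh, which starts proline degradation, fell by 1.11 (SE 0.124, adjusted p = 2.07e-05). With knockdown 0 of the 15 passed by edgeR or by DESeq2 and 1 had an unadjusted p under 0.05. Among all 12342 genes an unadjusted edgeR p of 0.0494 ranked 3500 in that comparison. With BBR in shRNA mice Prodh fell by 0.66 (SE 0.122, adjusted p = 0.0043) and Slc38a3 by 0.65 (SE 0.144, adjusted p = 0.00798), so these 2 genes were lower with BBR in both settings, whereas Oat and Slc1a2 did not pass in the second. In shRNA+BBR against Vec+BBR, Prodh was 0.47 higher (SE 0.122, adjusted p = 0.0222).

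Markers of other liver cells differed between the groups too, and their part in the results above was not tested. Of 8 endothelial markers, which do not single out the central vein, 3 rose with BBR in Vec mice (Lyve1, 0.92, Vwf, 0.80, and Pecam1, 0.53). With knockdown 3 rose (Stab2, 0.64, Kdr, 0.55, and Clec4g, 0.47). The summed level of the 8 was 77.6 to 106 CPM in Vec, 99.2 to 136 in Vec+BBR, 111 to 141 in shRNA and 95.9 to 138 in shRNA+BBR. Of 8 stellate cell markers 3 rose with BBR in Vec mice (Col1a1, 1.18, Col3a1, 1.03, and Pdgfrb, 0.64), with sums of 152 to 285 CPM in Vec and 307 to 340 in Vec+BBR, and in shRNA+BBR the sums were 253 to 386 against 190 to 250 in shRNA. Of 5 tested hepatocyte markers 2 fell with BBR in Vec mice, Serpina1a (-1.12) and Fgb (-0.48), and 1 with knockdown, Serpina1a (-0.47). Of 8 macrophage markers Cd68 (0.64) rose and Marco (-3.03) and Timd4 (-0.78) fell with BBR in Vec mice, Cd68 (-0.72) and the stellate marker Col1a1 (-1.12) fell with knockdown, and the sums overlapped between all groups. Cholangiocyte markers summed to 24.0 to 45.4 CPM in Vec and 50.3 to 96.6 in Vec+BBR, where Spp1 rose by 1.00. With BBR in shRNA mice, 4 stellate markers rose, 1 endothelial marker rose and 2 fell, and 1 hepatocyte marker fell. There 1 macrophage and 1 cholangiocyte marker also rose, where 8.37% of all genes rose and 7.28% fell. Between shRNA+BBR and Vec+BBR no marker of these lists passed by edgeR, and DESeq2 called 1 hepatocyte marker. Of 5 erythroid markers 0 passed in any of the 4 comparisons between 2 groups by edgeR. In shRNA against Vec 1 passed by DESeq2 and 4 had an unadjusted p under 0.05, where an edgeR p of 0.0494 ranked 3500 of 12342 genes. In shRNA+BBR against shRNA 3 had an unadjusted p under 0.05, against 33.2% of all genes. Lymphocyte markers summed to at most 4.97 CPM, and Nkg7 and Cd3g fell with BBR in Vec mice. Of the 3 tested, 1 fell with knockdown (median of the 3, -1.26). In shRNA+BBR they went the other way, where 1 rose against shRNA (median 1.125) and 1 against Vec+BBR (median 2.078). Each of these 3 counts became 0 without some single mice.

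The 10 genes also varied from mouse to mouse within groups, and part of them did so together. The within-group SD of log2 CPM was 0.593 for Oat, 0.547 for Lgr5 and 0.506 for Slc1a2, against a median of 0.227 over all genes tested, and it was lowest for Glul (0.174) and Tbx3 (0.178). After the group means were removed, the median Pearson correlation of log2 CPM over the 45 pairs of the 10 genes was 0.43 across the 20 mice, against -0.001 over all 76156311 pairs of tested genes. It was 0.292 without Vec replicate 3 and 0.335 without Vec+BBR replicate 3. The range was from -0.23 (Glul with Axin2) to 0.948 (Oat with Slc1a2), and 41 of 45 were above 0. Periportal genes shared part of this variation. In shRNA+BBR replicates 1 to 5 their list summed to 17087, 17477, 15170, 15143 and 22076 CPM, the same order as Oat. In Vec, replicate 4 was highest and replicate 3 lowest for both. In Vec+BBR and shRNA the orders differed, and correlations within the other lists were not tested.

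Oat, Slc1a2, Lhpp, Cyp2e1 and Rhbg formed a block in which the 10 correlations were between 0.703 and 0.948. For Oat with Slc1a2, r was 0.948 and Spearman's rho 0.914, with permutation p values within groups of 1e-05, the smallest that 100000 permutations can give, and 2e-05, adjusted over the 45 pairs to 0.00015 and 0.00045, and r was 0.908 without the 2 mice farthest from the median of Oat. Oat and Lhpp, whose r was 0.899 (rho 0.902, permutation p = 1e-05 and 3e-05, adjusted 0.00015 and 0.00045, and 0.85 without 2 mice), are neighbours on chromosome 7, where Oat lies at 132557478 to 132576398 on the minus strand and Lhpp at 132610638 to 132706420 on the plus strand, with 34239 bases between them. Axin2 and Lgr5, the pathway genes that did not pass with BBR in Vec mice, correlated with each other, at r = 0.63 and rho = 0.642 (permutation p = 0.00938 and 0.00642, adjusted 0.0352 and 0.0321, and 0.566 without 2 mice). Axin2 correlated with Cyp2e1 at r = -0.166 and rho = -0.257 (permutation p = 0.509 and 0.316, adjusted 0.587 and 0.478, and -0.374 without 2 mice). Glul correlated with Rhbg, at r = 0.648 and rho = 0.629 (permutation p = 0.00446 and 0.00787, adjusted 0.0182 and 0.0354, and 0.53 without 2 mice). All 10 genes are measured in the same libraries, so the pairs share depth and scaling.

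**Figure D4:**
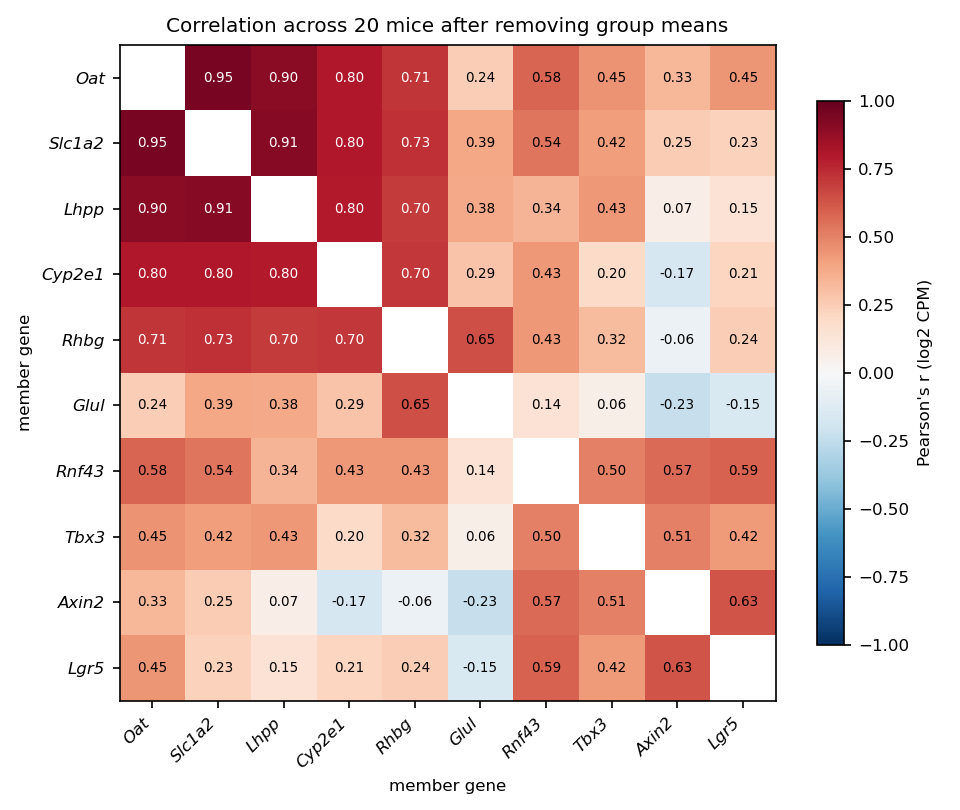
Pearson correlation of log2 CPM between each pair of the 10 genes across 20 mice after removal of group means, with colour from -1 to 1 and the value printed in each cell. Oat, Slc1a2, Lhpp, Cyp2e1 and Rhbg form a block of values from 0.703 upwards, and Axin2 with Glul gives -0.23.

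The genes most like 3 of the members by the same measure, among 9794 genes with a mean count of at least 50, differed from member to member. For Cyp2e1 they were Phyh (0.861), Plg (0.857) and Hpd (0.838), and Slc1a2, Oat and Lhpp ranked 21, 26 and 30. For Glul they were Slc25a45 (0.84), Mup18 (0.79) and Mup22 (0.786), of which the Mup genes belong to a family of near-identical copies and are uncertain, and Rhbg ranked 26. For Axin2 they were Nktr (0.784), Pan3 (0.761) and Tcf20 (0.749), and Rnf43 ranked 202. These are correlations over the 20 mice and are given as a description.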

How the data were processed

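RNA from 20 livers was sequenced after oligo-dT selection with a kit that does not mark strand. Per the file headers, the deposited tables give an expected count per gene, in which the authors divided reads that match several genes, and an FPKM value, scaled by the authors for length and depth. The submitters' processing notes name mm10, and the aligner and the counting program are not given in the sources used here. Samples were grouped by their labels, with the number in the label as replicate.

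Counts were rounded and filtered with filterByExpr (minimum count 10, minimum total 15), leaving 12342 of 22298 genes. The quasi-likelihood test of edgeR 4.0.16 in R 4.3.3 with TMM scaling (factors 0.873 to 1.14) was fitted to all 4 groups with no covariate. P-values were adjusted by Benjamini-Hochberg over all genes tested, with a threshold of 0.05. Nothing states whether mice of a group shared a cage or litter. Total counts of 17432904 to 25024099 put 3 counts, the floor, at 0.120 to 0.172 CPM, which covers counting error only. On simulated counts for Vec+BBR against Vec with 12342 genes, 74% of genes with a true log2 change of -1 and 96% of those with -2 were called, and 0.0659% of unchanged genes. In this simulation 50 genes each changed by -2, -1, 1 or 2 and 12142 did not change, whereas the data gave 1908 calls. Each simulated gene had the same dispersion in all groups. These shares are therefore not the power of the test on the data.

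Correlations used log2 CPM (prior count 2) with group means removed, and 100000 permutations within groups in Python 3.11.15. Alternatives were RLE size factors, library size alone, no filter, at least 10 counts in every sample, DESeq2 1.42.0, limma 3.58.1 on log2(FPKM + 0.1), the 2 groups compared alone, a replicate block, and each mouse left out. Positions are from GENCODE M21 (GRCm38), and sequences are from RefSeq (GRCm38.p6). Named list genes are up to 3 per list, comparison and direction with an adjusted p under 0.05 and the largest absolute log2 fold change, besides Ctnnb1, Tcf7l2, Lgr4, Znrf3, Wnt2, Wnt9b and Rspo3, Pparg, and for Glul, Axin2 and Cyp2e1 the 3 genes with the highest correlation. Ass1, the fourth periportal gene called in shRNA+BBR against Vec+BBR, and Gm38392 were named after their values were seen, and the alternatives for single list genes were added after the data were seen. The genes and lists were chosen with earlier results of these data known. A single gene of the list on glutamine, ammonia and proline handling is not reported here.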

Additional observations from a re-analysis of the deposited data

Results flagged for a closer look

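Among 40 groups of 5 mice (10 genes in 4 groups), 2 held a mouse that stood far from the other 4, about the number that chance gives at 1 in 20. Lgr5 was 0.736 CPM in Vec replicate 3, below the 1.93 to 2.36 CPM of the other Vec mice. Tbx3 was 8.90 CPM in Vec+BBR replicate 3, below the 12.4 to 13.4 CPM of the others. The effect of BBR differed between Vec and shRNA mice by the interaction test for Tbx3 among the 10 genes, at 0.858 on the log2 scale (edgeR, adjusted p = 0.0292). Without Vec+BBR replicate 3, the fall of Tbx3 with BBR kept its call.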

How the results depend on the processing

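Of the 8 members called in Vec+BBR against Vec, 7 to 8 were called when 1 mouse was left out, and 5 with library size alone or with limma on log2(FPKM + 0.1). Without 1 mouse the number called was 4 to 7 in shRNA against Vec, 0 to 3 in shRNA+BBR against Vec+BBR (2 with DESeq2), 0 to 1 in shRNA+BBR against shRNA (0 with limma) and 0 to 3 for the interaction (6 with DESeq2, 0 with library size alone or limma). Over all genes, leaving out 1 mouse gave 1235 (without Vec replicate 2) to 2394 (without Vec replicate 3) calls in Vec+BBR against Vec, 1006 to 2274 in shRNA against Vec, 537 to 1210 in shRNA+BBR against Vec+BBR, 661 to 2522 in shRNA+BBR against shRNA and 6 to 134 for the interaction. The interaction had 30 calls with library size alone, 338 with DESeq2 and 34 with limma, and Vec+BBR against Vec had 1199 with the 2 groups alone. The cause was not tested. The median correlation was 0.344 by Spearman, 0.545 with group means kept and 0.292 to 0.504 without 1 mouse. Signs turned for uncalled values. Cyp2e1 in shRNA+BBR against shRNA was -0.001 with RLE, the replicate block or DESeq2, -0.01 with library size alone, -0.005 with no filter, -0.02 with limma and -0.081 to 0.121 without 1 mouse, and Rnf43 was -0.005 with library size alone and -0.043 to 0.056 without 1 mouse. Lgr5 in Vec+BBR against Vec was 0.025 with limma, and without 1 mouse Axin2 was -0.077 to 0.233 in shRNA against Vec and -0.028 to 0.281 for the interaction. Mice with the same number correlated above 0.1 in at most 3 of 5 numbers of any pair of groups, so the numbers do not pair mice. With the replicate block 8 members were called for BBR and 5 for knockdown against the Vec mice, 1 for BBR in the knockdown, 0 for knockdown under BBR and 1 for the interaction, where Lgr5 (adjusted p = 0.0725, shRNA against Vec) and Tbx3 (0.0502, interaction) were lost and Rhbg (0.0307, interaction) was gained. Of 1941 list counts under alternatives, 259 moved by over 1.5 times. Lgr5 has no value with at least 10 counts in every sample, and the interaction was not run on 2 groups alone. Depth limits Lgr5, which had 9 to 54 counts per library.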
